A study of Mus musculus with 6 samples.

Results

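Mesothelial cells, and the surface epithelium that covers the ovary, carry a characteristic set of proteins on the membrane that faces the body cavity, and 10 genes for such proteins were followed here. They encode mesothelin (Msln), the membrane mucins Muc16 and Muc1, the uroplakins Upk1b, Upk3b and Upk1a, the glycoproteins Lrrn4 and Gpm6a, the sialomucin podocalyxin (Podxl) and the membrane linker ezrin (Ezr). Members were taken by gene symbol: every probe set annotated to exactly 1 of these symbols was used. The 10 genes, of 18193 named on the array, had 17 of its 45037 probe sets other than controls.

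The samples were primary ovarian surface epithelium cells from virgin FVB/N females aged 8 weeks, a strain of laboratory mouse with no genetic modification named in the labels. Ovaries were digested and the cells that came off were kept for 24 hours in culture. ALDEFLUOR, whose product glows in cells with active aldehyde dehydrogenase (ALDH), was used to sort them, with unstained cells and cells given the ALDH inhibitor DEAB as controls. The sort gave an ALDH-positive and an ALDH-negative fraction. It was done on 3 separate pools of 10 mice, and each fraction of a pool was hybridised to 1 Affymetrix Mouse Genome 430 2.0 array, 6 arrays in all. The labels name no treatment that sets the fractions apart other than the sort. A value here is the level of a pool of animals and of all cells in a gate, so that fewer cells of a type and less RNA per cell cannot be told apart.

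Mesothelin is a glycoprotein anchored to the outer face of the mesothelial membrane by a lipid, and the mucin Muc16, which carries the antigen known as CA125, binds it. Uroplakins are membrane proteins best known from the plaques of the bladder lining; Upk1a and Upk1b are tetraspanins, while Upk3b, a single-pass protein, is also a marker of mesothelium. Podocalyxin has a negatively charged mucin-like outer part and is joined inside the cell, through the scaffold protein Nherf1 (gene Slc9a3r1), to ezrin, which ties membrane proteins to actin in microvilli.

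Levels are log2 signal after quantile normalization, and a difference is ALDH-positive minus ALDH-negative within a pool, so that a difference of 1 is a doubling of signal. Probe sets whose mean over the 6 arrays lay in the lower 40%, at a level of up to 2.73, were not tested. That filter left 16 of the 17 member probe sets and 27022 in all, and Muc16, at a mean of 2.73, passed it narrowly. Muc16, Lrrn4, Gpm6a probe set 1426442_at and Podxl probe set 1417396_at were under 2.73 on all 3 ALDH-negative arrays, so that they passed only through ALDH-positive arrays and had to differ. The same holds for Upk1b probe set 1435831_at, whose ALDH-negative mean was 2.20, with 1 array at 2.75. A level under 2.73 is called dim below, and a fold against a dim level rests mostly on background. In pool 2 the ALDH-negative array was unlike the rest: it correlated with them at 0.56 to 0.68 across probe sets, while the other 5 correlated with each other at 0.85 to 0.97. Results that move with it are therefore also given for pools 1 and 3.

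The RefSeq promoter table of the mouse assembly GRCm38.p6 holds 250 bases before and 50 after a gene's start, and it lists 8 starts for 7 of the 10 genes. A promoter each of 3 genes that were brighter in ALDH-positive cells is shown, with that of Muc1, which was not. Each is printed on the strand of its gene from 5′ to 3′. Capitals mark the letters CATTCC or their reverse complement GGAATG, the core bound by TEAD factors, the DNA-binding partners of YAP.
Upk3b, chr5:136038246-136038545, plus strand: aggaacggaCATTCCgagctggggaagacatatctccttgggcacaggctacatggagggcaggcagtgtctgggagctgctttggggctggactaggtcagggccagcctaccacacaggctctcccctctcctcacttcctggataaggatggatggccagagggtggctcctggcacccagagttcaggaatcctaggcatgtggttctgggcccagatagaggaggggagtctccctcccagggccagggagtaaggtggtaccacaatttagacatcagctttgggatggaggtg
Lrrn4, chr2:132880813-132881112, minus strand: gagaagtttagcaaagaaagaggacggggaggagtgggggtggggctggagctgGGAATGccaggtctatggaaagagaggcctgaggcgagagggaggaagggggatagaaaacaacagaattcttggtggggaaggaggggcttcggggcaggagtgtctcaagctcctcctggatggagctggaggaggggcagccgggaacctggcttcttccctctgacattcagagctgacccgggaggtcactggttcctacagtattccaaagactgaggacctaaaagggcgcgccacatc
Gpm6a, chr8:54779184-54779483, plus strand: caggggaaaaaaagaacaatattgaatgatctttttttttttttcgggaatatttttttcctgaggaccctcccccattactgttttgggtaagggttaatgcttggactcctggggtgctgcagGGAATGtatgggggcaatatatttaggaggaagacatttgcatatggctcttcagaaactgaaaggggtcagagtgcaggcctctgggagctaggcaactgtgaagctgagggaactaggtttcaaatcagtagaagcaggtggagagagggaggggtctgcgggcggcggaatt
Muc1, chr3:89228806-89229105, plus strand: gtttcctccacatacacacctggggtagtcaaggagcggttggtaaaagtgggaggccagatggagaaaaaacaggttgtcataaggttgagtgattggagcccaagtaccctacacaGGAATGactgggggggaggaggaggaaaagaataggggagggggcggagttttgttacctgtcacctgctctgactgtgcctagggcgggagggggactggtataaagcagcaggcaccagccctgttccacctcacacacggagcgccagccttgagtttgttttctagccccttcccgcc
These letters lie 241 bases before the start in Upk3b, 196 in Lrrn4, 125 in the Gpm6a promoter shown and 132 in Muc1. They occur on either strand in these 4 of the 8 member promoters, and in 14.7% of all 32851 promoters of the same length. The promoters of Muc16, Upk1a and Ezr and the other Gpm6a start do not hold them in this window. The GC box GGGCGG, searched on both strands, occurs in 3 of the 8 (Muc1, Ezr and the Gpm6a promoter shown) and in 35.7% of all, and TATAAA in 2 of the 8 (Muc1 and the other Gpm6a start) and in 13.6% of all. Muc1 is the 1 member whose promoter holds all 3 motifs. A match in these windows is a description of letters only.

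The comparison of the fractions asked which genes distinguish cells of high ALDH activity from the other cells of the same pool. Of the 10 genes, 8 were brighter in ALDH-positive cells in every pool, with mean log2 differences from 2.73 for Podxl to 4.36 for Gpm6a. Muc1 and Upk1a were the 2 others, and their fractions overlapped. Both read low except on the ALDH-negative array of pool 2. Averaged over the 8 genes, the level was 3.44, 3.63 and 3.32 on the ALDH-negative arrays of pools 1 to 3 and 7.18, 6.86 and 6.68 on the ALDH-positive arrays. Every ALDH-positive array thus stood more than 3 log2 units above every ALDH-negative array in this mean, which was taken over genes known to be brighter and is a description.

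None of the 16 tested member probe sets passed limma's paired test at an adjusted p of 0.05 over all 27022 probe sets, where 0 passed in all (0.0% of those tested). The smallest adjusted p of a member was 0.765. With arrays weighted by their fit, limma called 14 of the 16 member probe sets, all higher in ALDH-positive cells, against 10.9% of all tested in either direction and 5.47% higher. Those weights were 1.30, 0.16 and 4.87 for pools 1 to 3. Without pool 1, 0 member probe sets were called, and 0.0259% of all were (0.0148% higher). That fit gave every member probe set the same SE of 1.24, whatever its own spread. At an unadjusted limma p under 0.05, 14 member probe sets lay higher and 0 lower, where 552 (2.04%) lay higher and 109 (0.403%) lower of all tested. These 14 include the probe sets named above that passed the filter only through their ALDH-positive arrays, so that the count is a description. In 14 of all 17 member probe sets each ALDH-positive array exceeded each ALDH-negative array, which held for 3.23% of all 45037 probe sets and for 3.49% of those tested. The same 14 were higher in each of the 3 pools, as were 9.9% of all 45037. The median difference was 3.42 over all 17 member probe sets, beside -0.07 over all 45037. A test over the 3 pools alone, with signs exchanged within pools, cannot go below an exact p of 0.25.

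**Figure D1:**
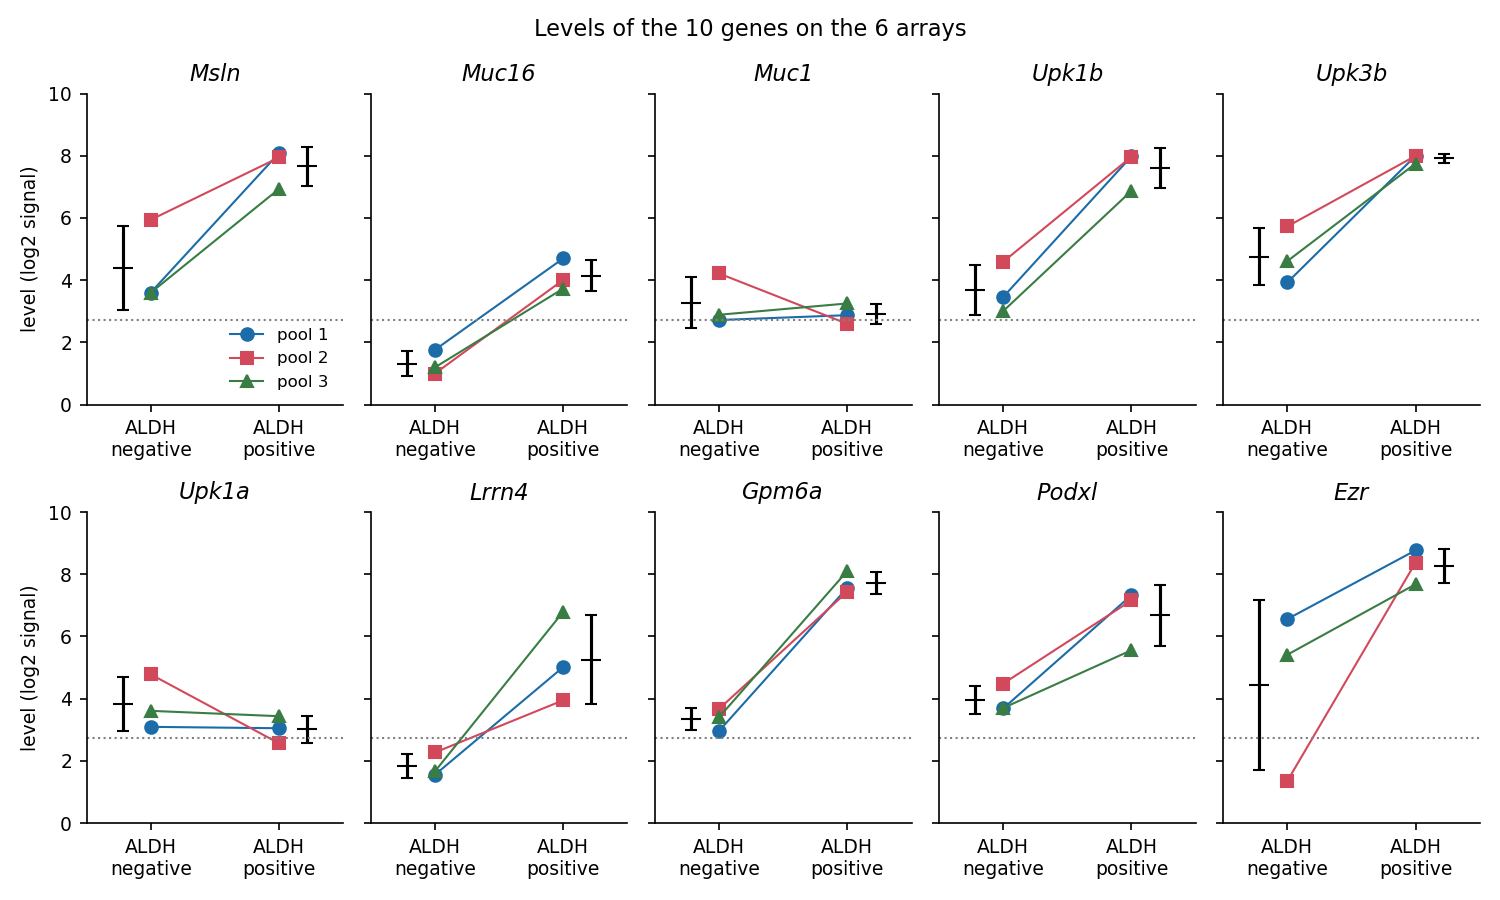
Level (log2 signal) of the 10 genes on each array, 1 probe set a gene, with lines joining the fractions of a pool, black marks for mean and SD of 3 arrays, and a dotted line at the filter level of 2.73. Lines slope upward in all 3 pools for 8 genes, while Muc1 and Upk1a lie between 2.56 and 4.78 in both fractions.

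Mesothelin was bright in ALDH-positive cells and low in the rest. Msln read 8.09, 7.94 and 6.94 on the ALDH-positive arrays of pools 1 to 3 and 3.60, 5.94 and 3.60 on the ALDH-negative arrays. The fractions did not overlap, but the ALDH-negative array of pool 2 came within 0.99 of the lowest ALDH-positive value. The differences by pool were 4.48, 2.00 and 3.34, with a mean of 3.27 (SE 0.73, n = 3 pools; 9.67-fold), which ranked 54 among the 27022 tested. Over pools 1 and 3 the mean was 3.91.

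Muc16, the mucin that binds mesothelin, separated the fractions from a dim base. It read 4.70, 4.01 and 3.73 in ALDH-positive and 1.76, 1.00 and 1.20 in ALDH-negative cells. All 3 ALDH-negative values are dim, so that its 7.09-fold difference is against background. The pool differences of 2.94, 3.01 and 2.53 had the smallest spread of the 10 genes (SD 0.26), with a mean of 2.83 (SE 0.64). The SE exceeds what this spread alone would give, since limma draws the variance of each probe set towards that of all.

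Muc1, the other mucin among the members, did not separate the fractions. It read 2.88, 2.60 and 3.25 in ALDH-positive and 2.72, 4.22 and 2.89 in ALDH-negative cells. The fractions overlapped, and the highest reading was that of the ALDH-negative array of pool 2. The readings of 2.72 and 2.60 are dim, and the others, up to 3.25, lay little above the filter level. Whether the Muc1 transcript was detected was not tested, so the overlap describes a low signal only. The mean difference was -0.37 (SE 0.71), with a 95% interval from -2.03 to 1.29, and 0.26 over pools 1 and 3. The difference of Muc16 exceeded that of Muc1 by 2.78, 4.63 and 2.17 in pools 1 to 3 (mean 3.19, SD 1.28; exact sign-flip permutation p = 0.25, two-sided, the smallest 3 pools allow).

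Among the uroplakins, Upk1b was brighter in ALDH-positive cells on all 4 of its probe sets, with mean differences from 3.92 to 4.87. The brightest of them on average (1457065_at) read 7.98, 7.97 and 6.87 in ALDH-positive and 3.46, 4.59 and 3.01 in ALDH-negative cells. The fractions lay 2.28 apart at their nearest. Its mean difference was 3.92 (SE 0.65, n = 3 pools; 15.2-fold), from 4.52, 3.38 and 3.87 in pools 1 to 3.

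The other probe sets of Upk1b gave as much or more. Probe set 1455464_x_at read 7.45, 8.01 and 8.05 against 3.03, 3.33 and 2.54, the last of them dim. Its mean difference of 4.87 (SE 0.65) ranked 5 among all tested. Probe set 1435831_at gave 4.83 (SE 0.65) and ranked 6. Its ALDH-negative values were 2.16, 2.75 and 1.69, dim in pools 1 and 3, so that this difference is mostly against background. The exception in a single array was 1439760_x_at, which read 5.70 in ALDH-negative cells of pool 3 against dim values of 1.66 and 1.54 in pools 1 and 2. On that array the 3 other probe sets read 1.69 to 3.01, so that the pool 3 difference was 2.42 on 1439760_x_at and between 3.87 and 5.51 on the others.

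Upk3b, the mesothelial uroplakin, was also brighter in ALDH-positive cells on both of its probe sets. Probe set 1434237_at read 8.00, 8.00 and 7.75 in ALDH-positive and 3.93, 5.73 and 4.61 in ALDH-negative cells. Its ALDH-positive values were the closest of any member (SD 0.14), and the mean difference was 3.16 (SE 0.69, n = 3 pools; 8.93-fold). The probe set 1454881_s_at read 8.87, 8.71 and 6.69 against 3.69, 2.86 and 4.02, with a mean of 4.56 (SE 0.81). The probe sets disagreed most in pool 2, with 2.27 and 5.84, where their ALDH-negative readings were 5.73 and 2.86.

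Upk1a, the other tetraspanin among the uroplakins, gave overlapping fractions. It read 3.05, 2.56 and 3.44 in ALDH-positive and 3.10, 4.78 and 3.61 in ALDH-negative cells. The reading of 2.56 is dim, and all but that of the ALDH-negative array of pool 2 were low. Whether Upk1a was detected was not tested. Its mean difference was -0.81 (SE 0.73), with a 95% interval from -2.52 to 0.89. Without pool 2 it was -0.11, since the pools gave -0.05, -2.22 and -0.17. The difference of Upk1b exceeded that of Upk1a by 4.57, 5.60 and 4.04 in pools 1 to 3 and that of Upk3b exceeded it by 4.12, 4.49 and 3.31 (exact sign-flip permutation p = 0.25 for each, two-sided, 0.25 after Benjamini-Hochberg adjustment over the 5 such pairs compared).

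The companion list of uroplakins held Upk1a, Upk1b and Upk3b themselves and 3 genes outside the members: Upk2 and Upk3a, which complete the plaque in bladder, and Upk3bl, a relative of Upk3b. Upk2 differed by 0.36, -4.19 and -0.01 in pools 1 to 3 (mean -1.28, SE 0.99) and Upk3a, named after its values were seen, by 0.29, -3.52 and 0.39. Both were read highest on the ALDH-negative array of pool 2, at 8.15 and 7.26, against 3.68 to 4.97 on the other arrays. Upk3bl was dim on all 6 arrays. The urothelial markers Krt5 and Trp63 had the same shape, with -3.07 and -1.80 in pool 2 against 0.45 and 0.11 in pool 1 and -0.32 and -0.40 in pool 3, and Krt20 was dim on every array. Grhl3, too dim to test, differed by -0.46, 0.19 and 4.05. Of the 4 urothelial markers tested, Upk2 and Upk3a among them, 0 passed limma's threshold (0 at an unadjusted p under 0.05), and their median was -0.96 over 3 pools and 0.12 over pools 1 and 3.

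Gpm6a and Lrrn4 belong to families known from neurons. Gpm6a is a proteolipid protein with 4 membrane spans that promotes thin cell protrusions, and Lrrn4 is a single-pass protein with leucine-rich repeats that marks mesothelium. The Gpm6a probe set 1456741_s_at read 7.57, 7.44 and 8.11 in ALDH-positive and 2.96, 3.67 and 3.40 in ALDH-negative cells. The fractions lay 3.77 apart at their nearest. The mean difference of 4.36 (SE 0.65, n = 3 pools; 20.5-fold) ranked 9 among all tested, with 4.60, 3.77 and 4.70 by pool.

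The other Gpm6a probe set, 1426442_at, read 6.42, 6.13 and 4.49 against dim values of 2.11, 1.68 and 1.43, a mean difference of 3.94 (SE 0.67). In pool 3 the probe sets moved apart: the ALDH-positive array was the highest of its fraction on 1456741_s_at and the lowest on 1426442_at. Lrrn4 read 5.02, 3.95 and 6.79 in ALDH-positive and 1.56, 2.27 and 1.66 in ALDH-negative cells. All its ALDH-negative values are dim, and the pools gave 3.46, 1.68 and 5.13, a mean of 3.42 (SE 0.82). Pool 3 gave the highest ALDH-positive level of Lrrn4 and pool 2 the lowest.

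**Figure D2:**
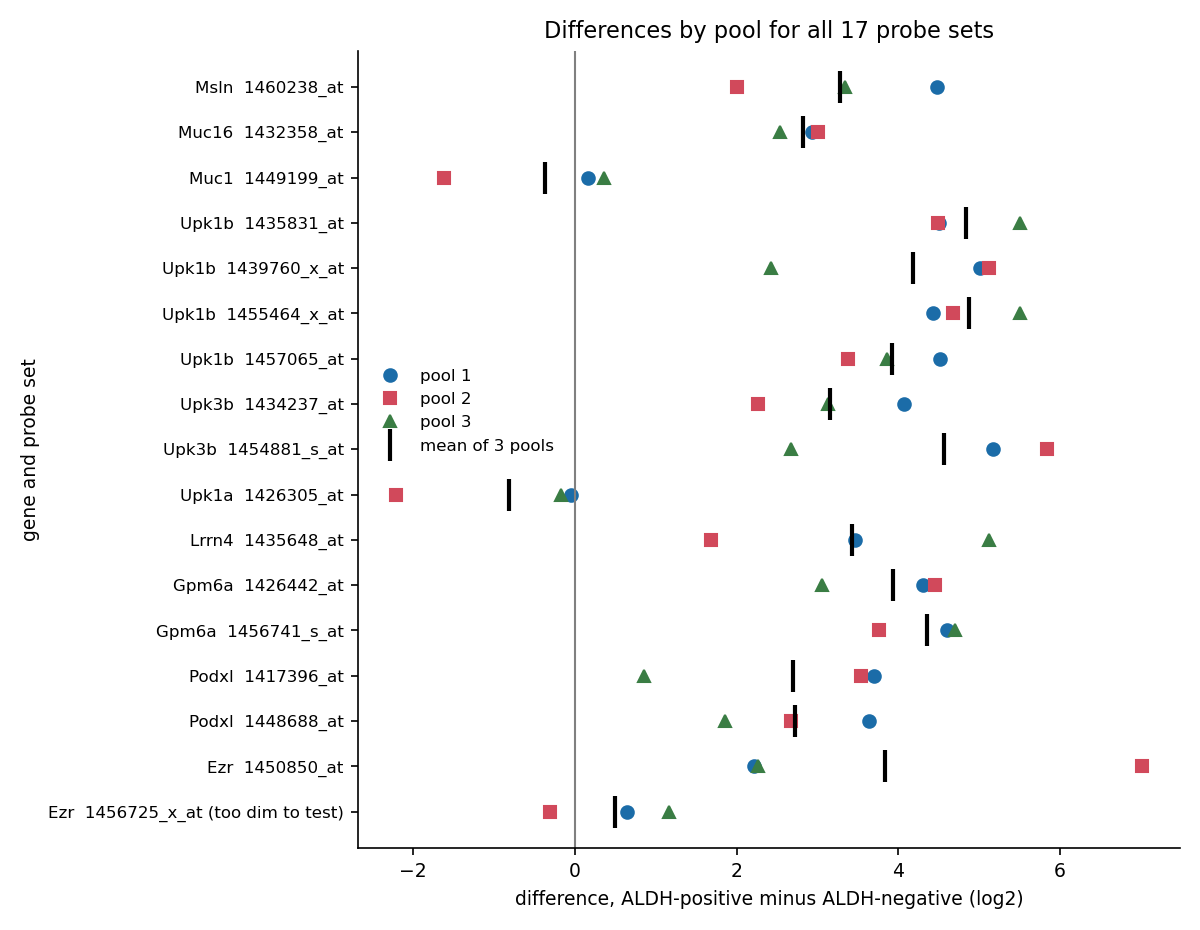
Difference between the fractions (log2, ALDH-positive minus ALDH-negative) in each pool for all 17 member probe sets, with a black bar at the mean of the 3 pools. In 14 probe sets all 3 pools lie above 0; pool 2 is the lowest for Muc1 and Upk1a, at -1.62 and -2.22, and the highest for Ezr, at 7.02.

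Podocalyxin, the anionic sialomucin of podocytes, mesothelium and endothelium, was brighter in ALDH-positive cells with a clear step between pools. The probe set 1448688_at read 7.33, 7.16 and 5.56 in ALDH-positive and 3.69, 4.49 and 3.70 in ALDH-negative cells. The differences were 3.64, 2.68 and 1.86, with a mean of 2.73 (SE 0.69, n = 3 pools; 6.61-fold). Probe set 1417396_at repeated the step, at 5.95, 5.50 and 2.46 against 2.24, 1.96 and 1.61. In pool 3 its ALDH-positive value was itself dim, and the difference there was 0.85.

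Since endothelium also makes podocalyxin, endothelial markers are given beside it. Of 10 such genes, 4 were bright enough to test and 0 passed limma's threshold (0 at an unadjusted p under 0.05), with 2 means above 0 and 2 below. Their mean level over all 10 ran from 2.41 to 3.06 on ALDH-negative and from 2.45 to 2.74 on ALDH-positive arrays. Kdr, the main receptor for vascular growth factor, differed by 2.62, 1.43 and 0.26 in pools 1 to 3, and Pecam1 by -0.56, 0.56 and -0.03. Eng, a co-receptor of endothelium, was lower in ALDH-positive cells in each pool, by -0.75, -1.66 and -1.06 (10.8% of all tested were). Its fractions did not overlap, which held for 3.4% of all tested with ALDH-positive lower. Vwf differed by 0.89, -1.77 and 1.07. Cd34, Cdh5 and Tie1 were too dim to test. They differed by 0.54, 0.27 and 0.70, by -1.44, -0.73 and 0.11 and by -0.33, -1.87 and -0.06. Tek and Plvap were dim on every array, and Emcn, an endothelial sialomucin, read 1.84, 1.96 and 2.06 in ALDH-positive cells against 4.82, 2.27 and 2.53. Single genes of the cell type lists are named here after their values were seen. Their part in the Podxl difference was not tested.

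Ezrin was well above the filter level in both fractions of pools 1 and 3. Its probe set 1450850_at read 8.77, 8.38 and 7.68 in ALDH-positive and 6.56, 1.35 and 5.41 in ALDH-negative cells. The mean difference of 3.83 (SE 1.04) rested largely on pool 2, where the ALDH-negative array read 1.35 and the difference was 7.02. Pools 1 and 3 gave 2.21 and 2.27, and without pool 2 the mean was 2.24. A dim probe set of Ezr, 1456725_x_at, was not tested and differed by 0.64, -0.31 and 1.17.

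The proteins that work with ezrin and podocalyxin were read from a list of 18 genes, of which 14 were tested. None passed limma's adjusted threshold; at an unadjusted p under 0.05, 2 lay higher and 0 lower. The list's median difference was -0.13, and 0.24 over pools 1 and 3, beside -0.04 and 0.01 over all probe sets tested. Slc9a3r1, a scaffold that joins podocalyxin to ezrin, read 8.95, 8.51 and 6.43 in ALDH-positive and 6.87, 2.52 and 4.46 in ALDH-negative cells. Its difference was 3.35 (SE 0.93), not past the adjusted threshold, and 2.02 over pools 1 and 3. Its 2 other probe sets gave 3.76 and 1.74, and the latter was below 0 in pool 3, at -1.17. The related gene Slc9a3r2, named after its values were seen, differed by 0.53, -1.29 and 0.72 in pools 1 to 3 (mean -0.01). The means of its probe sets ran from -1.39 to 0.36.

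Moesin (Msn), a close relative of ezrin, differed by 0.79, 2.74 and 1.49 in pools 1 to 3 (mean 1.67, SE 0.70). Its other probe set differed by 0.72, 7.10 and 0.56 (mean 2.79), and so was not below Ezr's 7.02 in pool 2. The small GTPase Rhoa differed by 0.05, 3.02 and 0.78, and the ezrin kinase Stk10 by 0.69, 0.84 and 1.11. Radixin (Rdx), the third of the ezrin family and named after its values were seen, differed by 0.09, -2.69 and -0.22, and its probe sets gave means of -0.94, 1.59 and 0.22. On the brightest probe set of each gene, the difference of Ezr exceeded that of Msn by 1.42, 4.28 and 0.78 in pools 1 to 3. It exceeded that of Rdx by 2.12, 9.71 and 2.48 (exact sign-flip permutation p = 0.25 for Msn and for Rdx, two-sided). Without pool 2 these gaps had means of 1.10 and 2.30.

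Other membrane mucins and sialomucins lay on both sides of 0. Of 13 listed, 5 were tested and 0 passed limma's threshold (0 at an unadjusted p under 0.05 as well), with 2 means above 0 and 3 below and a median of -1.13. Over pools 1 and 3 the median was 0.11. The epithelial mucins Muc4 and Muc13 differed by -1.57 and -1.35 over 3 pools, and by 0.13 and 0.05 over pools 1 and 3. On the ALDH-negative array of pool 2 they read 8.16 and 7.18, against 2.59 to 4.71 on the other arrays. The endolyn gene Cd164 differed by -0.56, 5.04 and 1.02 and its other probe set had a mean of -1.39 against 1.83. Cd24a, a small mucin-like antigen, differed by -0.83, -2.54 and -0.01 on its brightest probe set. That probe set's mean is the list's median, and the 2 other Cd24a probe sets had means of 1.95 and 0.58, so that its probe sets disagreed in sign.

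The relatives of mesothelin, Lrrn4 and Gpm6a were listed as 9 genes, with 4 tested and 0 past the threshold (0 at an unadjusted limma p under 0.05). Lrrn1 differed by -1.28, 4.57 and 2.10 and Lrrn2 by 0.69, -3.22 and 0.98. Lrrn4cl, the gene named as like Lrrn4 at its C terminus, differed by 0.40, -2.24 and 0.32, and Gpm6b, the nearest relative of Gpm6a, by -0.43, 0.78 and 1.15. Each of these 4 had a pool of opposite sign to the others, and their median was -0.004 over 3 pools and 0.38 over pools 1 and 3. Strc and Lrrn3 were dim on every array.

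Mucins are made functional by sugar chains added to serine and threonine in the Golgi, and 17 of 20 listed enzymes of that path were tested. None passed, 1 lay higher and 0 lower at an unadjusted limma p under 0.05, and the median difference was 0.08 (-0.04 over pools 1 and 3). The gene past that point was Gcnt1, which starts the branched core 2 chain. It read 4.59, 4.71 and 4.69 in ALDH-positive and 2.92, 3.29 and 2.38 in ALDH-negative cells, a difference of 1.80 (SE 0.65) that did not pass the adjusted threshold. The fractions did not overlap, which held for 3.49% of all tested with ALDH-positive higher, and its other probe set gave 1.65. The sialyltransferase St3gal2 differed by 1.95 (SE 0.84) on 1 probe set and by 0.24 and -0.13 on its others. Galnt2 and Galnt3, which add the first sugar, differed by 1.24 and -1.31 and by 0.31 and -0.03 over pools 1 and 3.

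**Figure D3:**
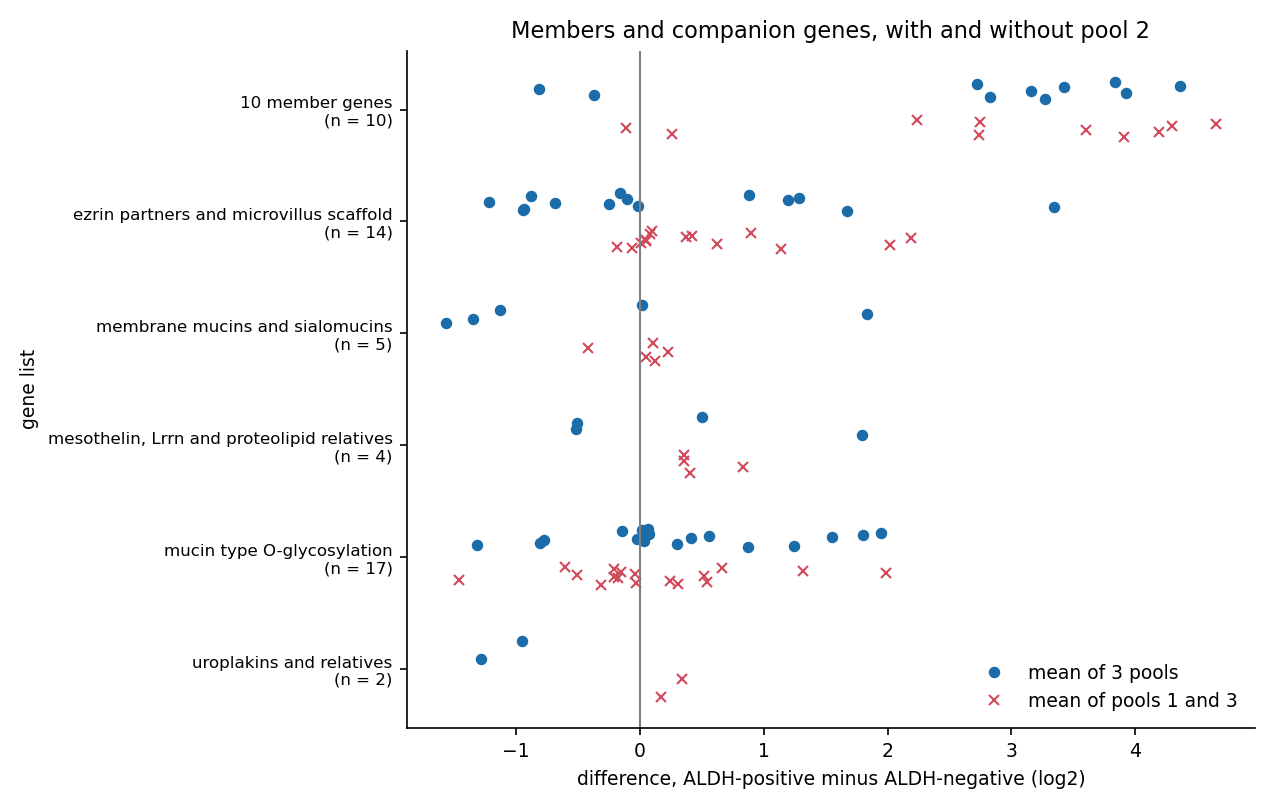
Mean difference between the fractions (log2) for the 10 members, 1 probe set a gene, and for the tested companion genes outside the members by list, over 3 pools (circles) and over pools 1 and 3 (crosses). The members other than Muc1 and Upk1a lie at 2.24 or above in both, while companion means, Slc9a3r1 apart, lie between -1.57 and 2.19.

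Over all tested probe sets the members lay far out on 1 side. By mean difference, 14 of the 16 ranked between 5 and 157 of 27022, and Muc1 and Upk1a ranked 17719 and 22958. By limma's unadjusted p the same 14 ranked between 3 and 115. A filter on mean level favours genes that are bright in 1 fraction, and probe sets of a gene share their transcript, so that these ranks are not separate pieces of evidence.

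**Figure D4:**
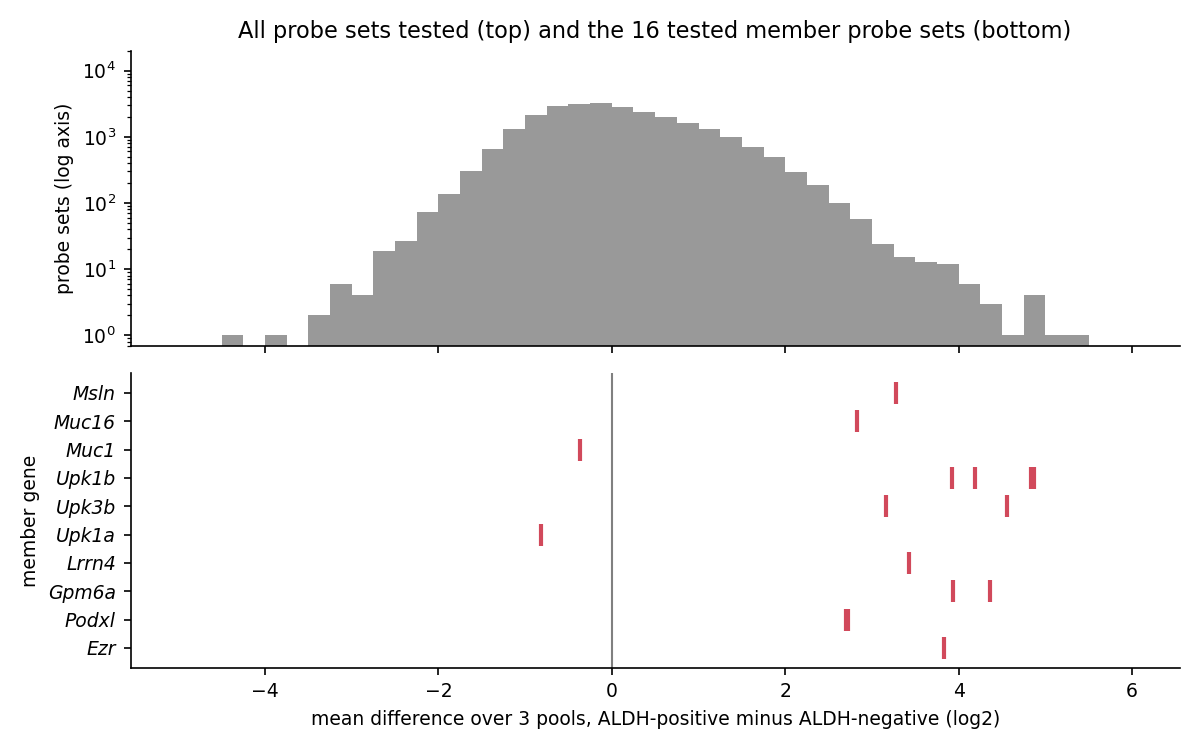
Number of probe sets (log axis) by mean difference over 3 pools (log2) for all 27022 tested, above the 16 tested member probe sets drawn as bars by gene on the same axis. Muc1 (-0.37) and Upk1a (-0.81) lie in the bulk, and the bars of the 8 other genes lie between 2.70 and 4.87.

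Markers of the labelled tissue were present and also separated the fractions. Of 11 surface epithelium and mesothelium genes outside the members, 9 were tested. All 9 lay higher in ALDH-positive cells in every pool (11.5% of all tested did). In 7 the fractions did not overlap, with ALDH-positive higher (3.49% of all tested). The median of the 9 was 3.61, and 2.68 over pools 1 and 3. Aldh1a2, 1 of the 9, encodes an aldehyde dehydrogenase, the activity that was sorted on. Its difference of 5.17 is thus not separate from the sort. The mean level of the 11 genes ran from 3.52 to 4.15 on ALDH-negative and from 6.21 to 6.69 on ALDH-positive arrays. The transcription factor genes Lhx2 and Tbx18 were dim on every array. Of the steroidogenic genes of theca and corpus luteum, Cyp11a1, Hsd3b1, Star and Fdx1 were tested, and Cyp17a1, the theca enzyme, was dim by its mean in both fractions (1.97 in ALDH-positive cells, against 2.12) and was not. The 5 genes had a mean level of 4.76 to 8.58 on ALDH-negative and 7.76 to 8.15 on ALDH-positive arrays, and the 4 tested had a median difference of -0.67 over pools 1 and 3 against 1.02 with pool 2. Stromal markers had a median of 0.85 (0.66 over pools 1 and 3), granulosa markers 0.18 (-0.13) and leukocyte markers -1.09 (0.0026). Past an unadjusted limma p of 0.05 were 3 of 7, 0 of 6 and 0 of 4 tested. The 3 stromal genes lay higher in ALDH-positive cells, as did 2.04% of all tested. Of the 7 stromal means, 6 lay above 0 and 1 below. Col3a1, named after its values were seen, differed by 4.04, 5.31 and 2.35 in pools 1 to 3, with a mean of 3.90 that lies within the range of the 8 brighter members. Of 6 oviduct epithelium markers, 2 were tested and both were higher in ALDH-positive cells in every pool, with a median of 1.73 (1.70 over pools 1 and 3). They were the epithelial adhesion genes Epcam, at 3.58, 0.48 and 0.38, and Cdh1, at 2.76, 3.11 and 0.08, of which Cdh1 passed an unadjusted limma p of 0.05. Foxj1 and Sox17, of ciliated and Müllerian epithelium, were dim on every array. Pax8 and Ovgp1 were too dim by their mean to test. Pax8 differed by 0.86, 1.09 and 0.67 in pools 1 to 3, and Ovgp1 by -1.36, 3.54 and -0.22. The part of these cell types in the member differences was not tested.

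Genes most like Msln and Upk3b were sought among 12804 other genes by Pearson correlation of levels over the 6 arrays, which share pools and a normalization. For Msln they were the junction protein gene Afdn (0.98), the kinase gene Map3k20 (0.98), the iron reductase gene Cybrd1 (0.97), the receptor gene Mst1r (0.96) and the transcription factor gene Maf (0.96). For Upk3b they were the RNA-binding protein gene Celf2 (0.99), the prostacyclin synthase gene Ptgis (0.99), Myrf (0.97), Maf (0.97) and the podoplanin gene Pdpn (0.97). Maf was on both lists, with pool differences of 2.52, 2.46 and 2.40. Over 5 arrays, without the ALDH-negative one of pool 2, these correlations lay between 0.969 and 0.996. With 6 arrays and this many genes, high values are to be had for many patterns, and no test was made.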

How the data were processed

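The 6 Affymetrix Mouse Genome 430 2.0 arrays (3 per fraction) were analysed. Per the labels' protocols, RNA underwent whole-transcriptome amplification (Ovation Pico) and biotin labelling; amplification from little RNA can lose dim transcripts unevenly between arrays. The deposited values, made by the authors, were taken as log2 signal from their range (0.035 to 13.1); no header states the scale. How probe sets were summarised, corrected and normalized is not stated, and no detection calls were used. The series design names GeneSifter and a paired SAM analysis.

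Array medians differed by 0.46, so, once 64 control probe sets were out, the other 45037 were quantile normalized. Those in the lower 40% by mean level were not tested. Names came from GEO's platform annotation, checked by Entrez identifier against RefSeq (GRCm38.p6): 34945 probe sets had 1 symbol, 932 several and 9160 none, and 34741 matched. The probe set of highest mean stood for a gene. Fractions were compared with limma 3.58.1 (R 4.3.3, lmFit and eBayes), tested on simulated data, with the pool as a block, as the series design pairs them, and p-values adjusted by Benjamini-Hochberg over the 27022 tested. Deviations of same-numbered arrays correlated at 0.38, -0.19 and 0.35 across probe sets. Those of differently numbered arrays correlated at -0.47 to 0.42, so that these values do not settle the pairing. Samples are separate pools, and 3 per fraction limits the precision.

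All members are named, with up to 4 genes of smallest p per companion list. Members, lists and tests were chosen with earlier results of these data known. Alternatives were other normalizations, filters, weights and left-out arrays.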

Additional observations from a re-analysis of the deposited data

How the results depend on the processing

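The 8 members that were brighter in ALDH-positive cells kept that direction under every alternative run in which they were tested (a filter on the lower 60% left 10 of the 16 member probe sets, without Lrrn4 and Muc16): values as deposited, median centring, no filter or another filter, array weights, no replicate block, each pool left out, omission of pool 2's ALDH-negative array, and the mean of a gene's probe sets. Their differences ranged from 2.17 (Ezr) to 4.84 (Gpm6a). Muc1 ranged from -0.73 to 0.26 with 1 pool left out and changed sign, to 0.26 without pool 2, 0.27 with array weights and 0.10 without the ALDH-negative array of pool 2 and without the block. The median difference of the tested members was 3.51 to 3.79 with 1 pool left out each time, and 3.28 to 4.07 over all alternatives. Leaving out a pool gave 0 to 7 called probe sets over all tested, the 7 without pool 1, and 0 members. Without pool 1 every member probe set had the same SE of 1.24, and without pool 3 of 1.28. Those 2 fits thus did not use the spread of each member probe set. Array weights called 2953 probe sets (10.9%; higher in ALDH-positive cells 5.47%), of them 14 member probe sets; the weights were 1.30, 0.16 and 4.87 for pools 1 to 3, so that this fit rests mostly on pool 3. Without the replicate block, 0 member probe sets were called (smallest adjusted limma p of a member 0.185), and 0 without the ALDH-negative array of pool 2 as well (0.136). The median of the O-glycosylation list moved to 0.53 in median-centred arrays and 0.43 without pool 1. That of the uroplakin list, which holds 3 members and whose -0.81 is Upk1a's own value, moved to 1.11 with the lower 60% removed, where Upk1a was no longer among the 4 genes tested, and to 0.34 without pool 2. Dim ALDH-negative levels limit the folds of Muc16 and Lrrn4, and of some probe sets of Upk1b, Gpm6a and Podxl.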
